A study of Mus musculus with 6 samples.

Results

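A set of 10 long noncoding RNAs (lncRNAs) with known or presumed roles in neural tissue, out of 55471 gene identifiers in the count files, was followed by name in the early mouse telencephalon with and without Dicer. The 10 are Malat1, Neat1, Miat, Rmst, Sox2ot, Dlx6os1, Six3os1, Pantr1, Gm19554 and Gm35040. They occupy 11 rows, because Dlx6os1 also names a short identifier of 146 bases that had 0 counts in every file. Gm19554 and Gm35040 were chosen because they were known as leading lower genes of the comparison described here, so their values are a description and carry no test. The other 8 were selected by name, with earlier results of these data known.

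The tissue was the rostral-most part of the telencephalic primordium, the forebrain wall that gives rise to the cortex and basal ganglia, dissected at E11.5 (embryonic age in days). In all, 3 control and 3 Rx-Dicer samples were sequenced as strand-specific, paired 100-base reads, and every value below rests on 3 libraries per group. Rx-Dicer embryos carried RxCre and Dicer F/F, that is, 2 floxed Dicer alleles and a Cre driven by regulatory sequences of Rax, an early eye and forebrain gene. The sample labels call the controls WT, whereas the protocol gives them as Dicer F/F without Cre, so both groups carried the floxed alleles by the protocol. The Cre line was kept on a CD1 and the floxed line on a C57BL/6 background. Cre activity in this line is strongest in the rostral and ventral telencephalon and low in the neocortex at this age. The tissue may therefore have held both recombined and unrecombined cells, and their shares were not measured here. Whether a library came from 1 embryo or several, and whether RNA was selected by its poly(A) tail, are not given in the sources used here.

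LncRNAs are transcripts without a long coding frame, many of which stay in the nucleus. Some organise nuclear bodies or bind splicing factors, and others arise at the genes of transcription factors, often from the opposite strand, and are expressed in the same territory as that gene. Dicer is the enzyme that cuts microRNA precursors into mature microRNAs, and several lncRNA loci also hold or neighbour a microRNA hairpin.

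The libraries held 34471501 to 48373468 counts on genes. Counts were divided by a size factor per library (normalised counts). Dicer1, the targeted gene, had 6355, 7070 and 6270 normalised counts in control 1 to 3 and 4777, 7002 and 4644 in Rx-Dicer 1 to 3. The library labelled Rx-Dicer 2 thus lay inside the control range, and the difference did not pass the test (log2 fold change -0.26 ± 0.17 (SE), DESeq2 adjusted p = 0.567). Leaving it out gave -0.47 with an adjusted p of 0.000881. The count covers the whole gene, so it also includes transcripts of a recombined allele that lack only the floxed part. Telencephalic markers were high throughout, with Lhx2, a transcription factor of forebrain progenitors, at 14071 to 22363 normalised counts, and no marker of the 9 lists examined was at 0 in all libraries. Markers of other tissues were also high and varied between libraries. Mesenchyme markers summed to 33262 to 73966 in controls and 50469 to 65046 in Rx-Dicer. Erythroid (red blood cell) markers summed to 334588 to 800881 in controls and 278097 to 777517 in Rx-Dicer. Summed subpallial (ventral) markers ranged from 6022 to 12677 in controls and were 5021, 18429 and 5776 in Rx-Dicer 1 to 3. The library labelled Rx-Dicer 2 therefore stood apart in ventral markers, and results that rest on it are given with and without it. The 5 microglial markers summed to 641 to 892 in controls and to 782 to 2348 in Rx-Dicer, and 2 of the 5 were called higher. In whole tissue, fewer cells of a type and less RNA per cell cannot be told apart.

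Of the 8 tested members, 1 was lower in Rx-Dicer (Pantr1) and 0 were higher. Called here means a DESeq2 adjusted p under 0.05 over all genes tested and an absolute log2 fold change over 0.32. Over all 17128 genes tested, 2.93% were called, 1.75% higher and 1.18% lower, which is the background for that count. By edgeR's quasi-likelihood test none of the 8 was called, beside 0.0446% of all genes. By that test 3 of the 8 had an unadjusted p under 0.05, beside 2313 of the 17954 genes it covered. The median log2 fold change of the 8 was 0.45 beside -0.00087 over all genes, and 7 were positive and 1 negative. An unadjusted DESeq2 p under 0.05 was found for 3 of the 8, beside 2239 of all 17128 genes tested. In 3 members (Malat1, Six3os1 and Pantr1) the 3 Rx-Dicer values lay all above or all below the 3 control values, beside 19.3% of all genes tested.

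**Figure D1:**
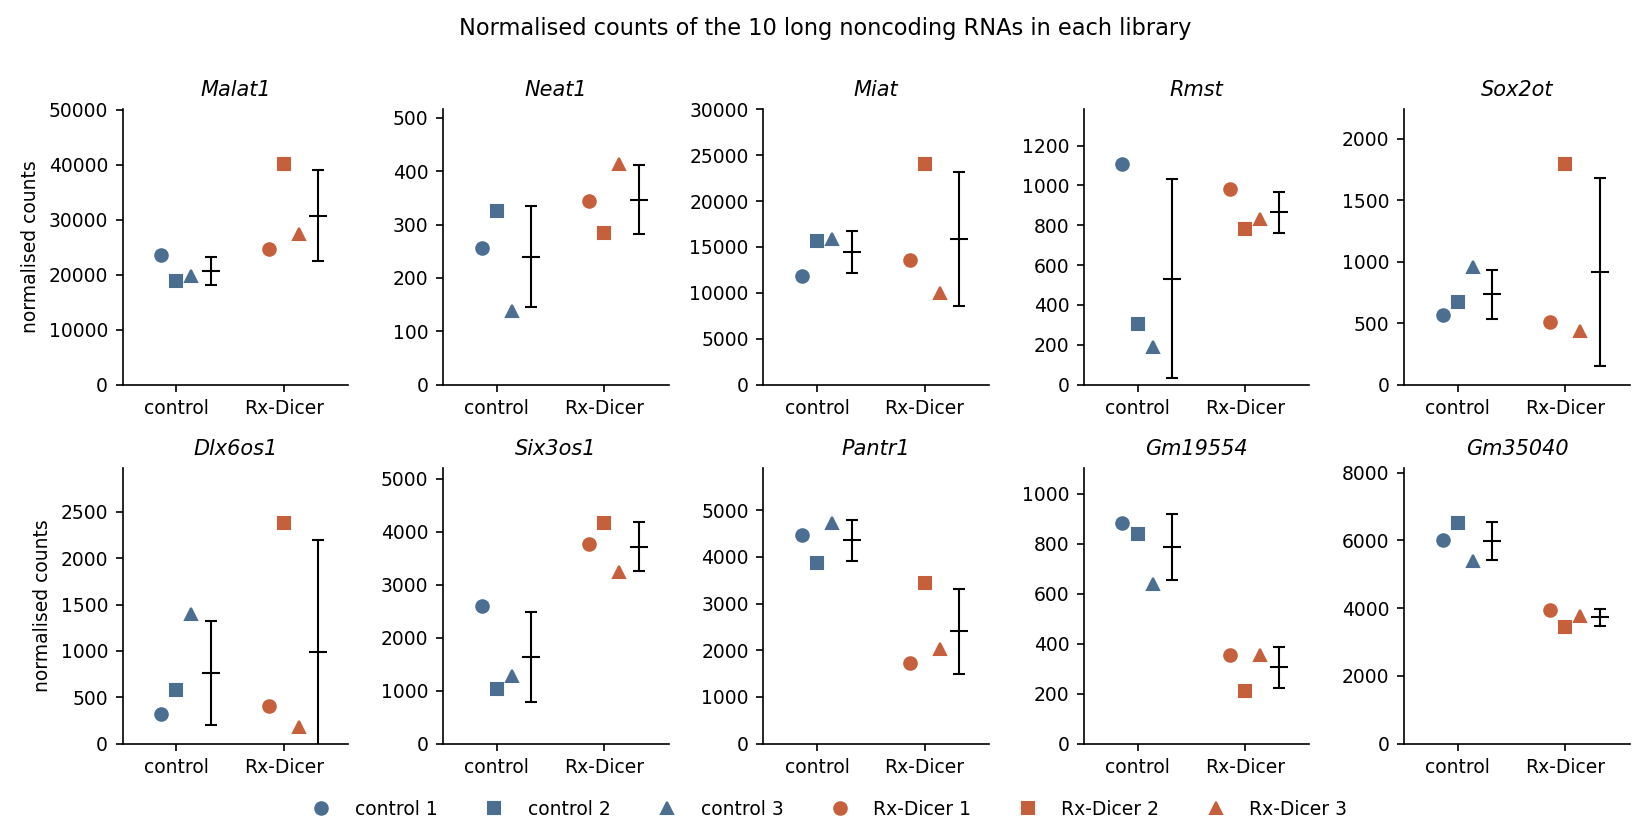
Normalised counts (y axis, from 0, a separate scale per gene) of the 10 lncRNAs in 3 control (blue) and 3 Rx-Dicer (orange) libraries, with replicate 1 as a circle, 2 as a square and 3 as a triangle, and the mean ± SD in black; the lower SD bar of Dlx6os1 in Rx-Dicer runs off the axis at 0. Pantr1, Gm19554 and Gm35040 lie lower in all 3 Rx-Dicer libraries, Malat1 and Six3os1 higher, and the square of Rx-Dicer 2 is the highest value of Malat1, Miat, Sox2ot, Dlx6os1 and Six3os1.

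Malat1 and Neat1 are neighbouring genes of chromosome 19 whose RNAs stay in the nucleus. Malat1 (ENSMUSG00000092341, GRCm38 chr19:5795690-5802672, minus strand, 1 exon) is an abundant RNA of nuclear speckles, where splicing factors gather. It had 23596, 18894 and 19660 normalised counts in the controls and 24688, 40136 and 27308 in Rx-Dicer. All 3 Rx-Dicer libraries were above all 3 controls, though Rx-Dicer 1 exceeded control 1 only slightly. This was a log2 fold change of 0.57 ± 0.18 (SE), a 1.48-fold difference that did not pass the test (DESeq2 adjusted p = 0.0570, edgeR 0.264). This value lay close to the threshold, since the adjusted p was 0.0494 on genes filtered for low counts, 0.0412 on the first sequencing run, 0.0449 on the second and 0.0145 without Rx-Dicer 1. Leaving out the library labelled Rx-Dicer 2 gave a log2 fold change of 0.33 (adjusted p = 0.219). The share of reads that overlapped no annotated gene was likewise highest in Rx-Dicer 2 and next in Rx-Dicer 3. It was 9.88, 8.15 and 8.54% in the controls and 9.04, 13.2 and 10.5% in Rx-Dicer. What this share reflects, and its part in the Malat1 values, was not tested. The protein-coding gene with the most similar values over the 6 libraries was Dach2, at a root mean square distance of 0.076 on the centred log2 scale.

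Neat1 (ENSMUSG00000092274, chr19:5824708-5845478, minus strand) is the scaffold RNA of paraspeckles. It had 257, 325 and 137 normalised counts in the controls and 344, 283 and 414 in Rx-Dicer, so the groups overlapped. Its log2 fold change was 0.54 ± 0.29 (SE; DESeq2 adjusted p = 0.422). Its single long exon holds 1 match to the 8-letter word CTACCTCA, which pairs with the seed of the let-7 family, the microRNAs named in the title of the series. A match is a description of the sequence and shows no binding. Of 8089 annotated lncRNA genes, 3.30% hold the word in their longest transcript, a share that makes no allowance for length. Among the 10 members the word occurred in Neat1 and in Gm35040. Per kb this was 0.048 in Neat1, whose transcript has 20771 bases, and 0.196 in Gm35040 (5094 bases), beside 0.0214 over all these genes. Both stretches are printed below, read from the GENCODE M21 transcripts, sense strand, 5′ to 3′, with the matched letters in capitals. The Neat1 match lies at chr19:5834686-5834693 (minus strand) and the Gm35040 match at chr7:79555537-79555544 (plus strand). The mature let-7a-5p from RefSeq has its seed (bases 2 to 8) in capitals.
let-7a-5p: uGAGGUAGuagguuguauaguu
Neat1: ggtcctacctcCTACCTCAactcttctcta
Gm35040: gaatgacagacCTACCTCAgaggtcttgcc

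Genes of proteins known to bind or work with Malat1, Neat1 or the other members, with Gad1, a gene known to respond to Dlx6os1, were counted as a list. Of these 23 genes, all tested, 1 was higher (Six3) and 0 lower, beside 1.75% higher and 1.18% lower over all genes, with a median log2 fold change of 0.006. The paraspeckle proteins Nono, Sfpq, Pspc1, Rbm14, Hnrnpk and Tardbp were not called, with log2 fold changes from -0.11 (Nono) to 0.04 (Tardbp). For the speckle factors Srsf1, Srsf2 and Son the range was -0.0049 to 0.13. By edgeR 0 of the 23 were called, with 1 at an unadjusted p under 0.05, beside 2313 of 17954 genes overall tested by edgeR.

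Miat (ENSMUSG00000097767, chr5:112213228-112229395, minus strand, 6 exon blocks) is a nuclear RNA of neurons and retinal precursors that carries repeats of the branch-point-like word ACTAAC, which the splicing factor Sf1 binds. It had 11852, 15593 and 15898 normalised counts in the controls and 13591, 24042 and 9936 in Rx-Dicer. Rx-Dicer held both the highest and the lowest library. Its log2 fold change was 0.13 ± 0.25 (SE; DESeq2 adjusted p = 0.929) and turned to -0.29 without the library labelled Rx-Dicer 2 (adjusted p = 0.614). Its longest transcript (9163 bases) holds the word 11 times, 1.20 per kb beside 0.138 per kb over all annotated lncRNA genes, of which 18.3% hold it at least once. A run of 4 copies stands in a stretch of 131 bases at chr5:112217319-112217449, printed from the GENCODE M21 transcript, sense strand, 5′ to 3′, with the word in capitals.
Miat: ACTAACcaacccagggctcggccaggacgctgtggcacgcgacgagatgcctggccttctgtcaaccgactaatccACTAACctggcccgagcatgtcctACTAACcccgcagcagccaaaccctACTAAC
The genes for 3 proteins that bind Miat or its repeats, Qk, Sf1 and Celf3, had log2 fold changes of 0.03, 0.0013 and -0.055, none of them called. The nearest profile over the 6 libraries was that of Gpc2, a proteoglycan of growing neurons, at a distance of 0.110.

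Among the members, 4 arise at genes of neural transcription factors that gave them their names, and Rmst is known as a partner of SOX2. The 18 protein-coding genes at the loci of all members included 17 with a read and 16 that were tested, of which 1 (Six3) was called higher and 0 lower, beside 1.75% and 1.18% of all genes, with a median log2 fold change of -0.0012. By edgeR 0 were called, with 3 of 16 at an unadjusted p under 0.05, beside 2313 of all 17954 genes tested by edgeR.

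Six3os1 (ENSMUSG00000093460, GRCm38 chr17:85600651-85618398, minus strand) overlaps the opposite strand of Six3 in GENCODE. Six3 is a homeobox gene of the anterior forebrain and eye field. It had 2599, 1028 and 1278 normalised counts in the controls and 3760, 4161 and 3229 in Rx-Dicer. Each Rx-Dicer library was above each control, with control 1 closest to them. The log2 fold change was 1.19 ± 0.44 (SE), 2.27-fold, and did not pass the test (DESeq2 adjusted p = 0.137, edgeR 0.207). It passed without control 1 (log2 fold change 1.69, adjusted p = 1.4e-19) and without control 2 (0.94, adjusted p = 0.0494). It did not pass without control 3 (1.04, adjusted p = 0.342) or Rx-Dicer 1 (1.18, 0.279). Nor did it without the library labelled Rx-Dicer 2 (1.10, 0.392) or Rx-Dicer 3 (1.28, 0.246).

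Six3 itself rose in Rx-Dicer. Its normalised counts were 1357, 684 and 1048 in the controls and 2177, 3018 and 2247 in Rx-Dicer, again without overlap. Six3 had a log2 fold change of 1.27 ± 0.22 (SE; DESeq2 adjusted p = 6.27e-06) and stayed called when any single library was left out (1.05 to 1.52). By edgeR the adjusted p was 0.133. The ratio of Six3os1 to Six3, each per kb of exon, was 0.878, 0.688 and 0.558 in the controls and 0.792, 0.632 and 0.659 in Rx-Dicer, so the ratios of the groups overlapped. Of all 11931 protein-coding genes compared, Six3 had the second nearest profile to Six3os1 (distance 0.213) after Thbs4 (0.159). Counting used the strand, so reads of the overlapping pair could be assigned to one gene or the other.

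Six2, a related homeobox gene 69.9 kb upstream of the Six3os1 start, had 699, 1129 and 4836 normalised counts in the controls and 1805, 2265 and 1742 in Rx-Dicer. Its log2 fold change of -0.20 ± 0.83 (SE; DESeq2 adjusted p = 0.975) rested on control 3, without which it was 1.08 (adjusted p = 0.000719). Mesenchyme markers were also highest in control 3. The 6 listed summed to 48141, 33262 and 73966 normalised counts in the controls and 65046, 51655 and 50469 in Rx-Dicer. The part of mesenchyme in the Six2 values was not tested. Markers of the hypothalamus and optic field, where Six3 is also expressed, moved with Six3os1. The 6 listed genes summed to 255, 252 and 353 normalised counts in the controls and 592, 743 and 552 in Rx-Dicer, and 2 of the 4 tested (Vax1 and Otp) were called higher. The part of these cells in the Six3os1 values was not tested.

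The RefSeq start windows of both genes, each 300 bases that end just inside the transcript, lie back to back with 1937 bases between them. The annotations differ here, since the GENCODE Six3 gene starts at chr17:85613608, inside Six3os1, and the RefSeq Six3 window lies outside it. The windows are printed because the pair moved together. Each is on its own strand, 5′ to 3′, in the GRCm38.p6 build. Capitals mark the words CCAAT and GGGCGG on either strand, so that ATTGG is CCAAT read from the other strand. Over 32851 RefSeq promoter windows, 37.4% hold CCAAT and 35.7% hold GGGCGG. Six3os1 is chr17:85618347-85618646, minus strand, with 1 of each word. Six3 is chr17:85620584-85620883, plus strand, with 3 CCAAT and no GGGCGG.
Six3os1: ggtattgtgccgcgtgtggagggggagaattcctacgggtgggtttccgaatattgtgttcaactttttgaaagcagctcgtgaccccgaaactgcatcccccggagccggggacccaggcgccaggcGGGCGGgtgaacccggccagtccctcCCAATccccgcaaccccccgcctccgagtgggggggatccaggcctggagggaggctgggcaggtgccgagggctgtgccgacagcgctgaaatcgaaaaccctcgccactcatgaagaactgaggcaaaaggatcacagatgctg
Six3: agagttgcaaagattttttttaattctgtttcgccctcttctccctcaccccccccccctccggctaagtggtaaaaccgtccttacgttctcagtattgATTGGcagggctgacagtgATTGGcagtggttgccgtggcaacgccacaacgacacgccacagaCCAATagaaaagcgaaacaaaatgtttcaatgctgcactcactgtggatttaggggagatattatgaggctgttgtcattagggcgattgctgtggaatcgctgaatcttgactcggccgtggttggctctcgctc

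**Figure D2:**
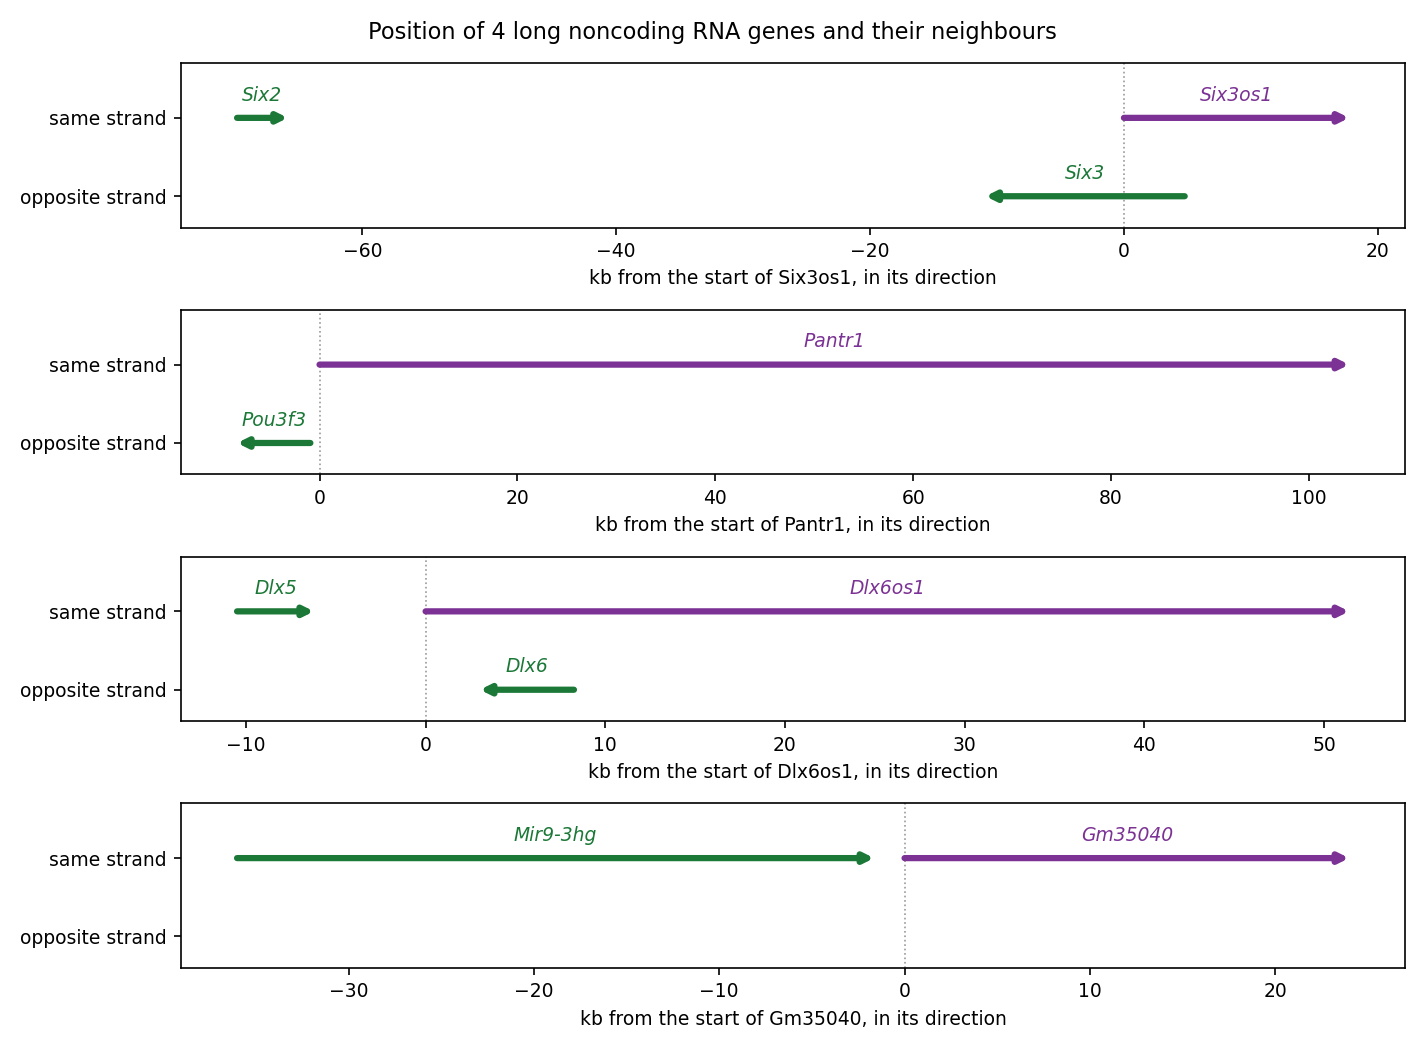
Extent of 4 of the lncRNA genes (purple) and named genes of their loci (green), as arrows pointing in the direction of transcription; the x axis is the distance in kb from the start of the lncRNA gene, in its own direction, and the 2 levels are its strand and the opposite one. In GENCODE, Six3 and Dlx6 overlap their lncRNA on the opposite strand. Pou3f3 starts 0.926 kb upstream of Pantr1, and Mir9-3hg ends 1.639 kb before Gm35040 on the same strand.

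Pantr1 (ENSMUSG00000060424, chr1:42590782-42694842, minus strand, 10 exon blocks) starts 0.926 kb from Pou3f3 (Brn1), a POU factor of neural progenitors and upper-layer neurons, and runs away from it. Of the 8 tested members, Pantr1 was the one called lower. It had 4469, 3877 and 4726 normalised counts in the controls and 1738, 3435 and 2038 in Rx-Dicer. All Rx-Dicer libraries were below all controls, with the library labelled Rx-Dicer 2 nearest to them. The log2 fold change was -0.86 ± 0.22 (SE), 0.552 of the control level, with a DESeq2 adjusted p of 0.00747 and an edgeR adjusted p of 0.212.

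The Pantr1 call rested on several libraries. It was lost without control 1 (log2 fold change -0.84, adjusted p = 0.0682), control 3 (-0.79, 0.105), Rx-Dicer 1 (-0.67, 0.0647) or Rx-Dicer 3 (-0.75, 0.124). It was kept without control 2 (-0.93, 0.0470) and without the library labelled Rx-Dicer 2 (-1.20, adjusted p = 1.76e-13). The direction was the same in all of these fits.

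Pou3f3 had 18875, 19939 and 20409 normalised counts in the controls and 12916, 19406 and 14814 in Rx-Dicer. Its groups overlapped through the library labelled Rx-Dicer 2, and the log2 fold change of -0.33 ± 0.16 (SE) did not pass the test (DESeq2 adjusted p = 0.312). Leaving that library out gave -0.51 (adjusted p = 0.000552). The ratio of Pantr1 to Pou3f3 per kb of exon was 0.394, 0.323 and 0.385 in the controls and 0.224, 0.294 and 0.229 in Rx-Dicer. Every Rx-Dicer ratio was below every control ratio, and the Rx-Dicer mean was 0.678 of the control mean.

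Pantr2, another lncRNA named for the Pou3f3 locus, had 260, 300.4 and 256 normalised counts in the controls and 168, 461 and 129 in Rx-Dicer, a log2 fold change of -0.11 ± 0.37 (SE; DESeq2 adjusted p = 0.969), and -0.86 once the library labelled Rx-Dicer 2 was left out (adjusted p = 0.00759). The 5 markers of the pallium, the dorsal part of the telencephalon, summed to 33181, 28966 and 21011 normalised counts in the controls and 22013, 13955 and 20274 in Rx-Dicer, and 2 of them (Pax6 and Eomes) were called lower. Their part in the Pantr1 values was not tested. The nearest profile to Pantr1 was that of Igsf11, a cell adhesion gene, at a distance of 0.082.

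The RefSeq window at the Pou3f3 start, chr1:42695518-42695817 (plus strand, GRCm38.p6), lies just upstream of Pantr1 and is printed with the same words in capitals, 3 CCAAT and 1 GGGCGG.
Pou3f3: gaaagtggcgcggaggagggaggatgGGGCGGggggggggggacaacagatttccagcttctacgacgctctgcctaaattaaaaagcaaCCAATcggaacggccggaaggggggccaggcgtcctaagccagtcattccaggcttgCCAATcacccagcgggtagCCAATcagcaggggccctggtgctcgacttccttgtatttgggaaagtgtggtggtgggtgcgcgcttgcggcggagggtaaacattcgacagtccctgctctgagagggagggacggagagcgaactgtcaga

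**Figure D3:**
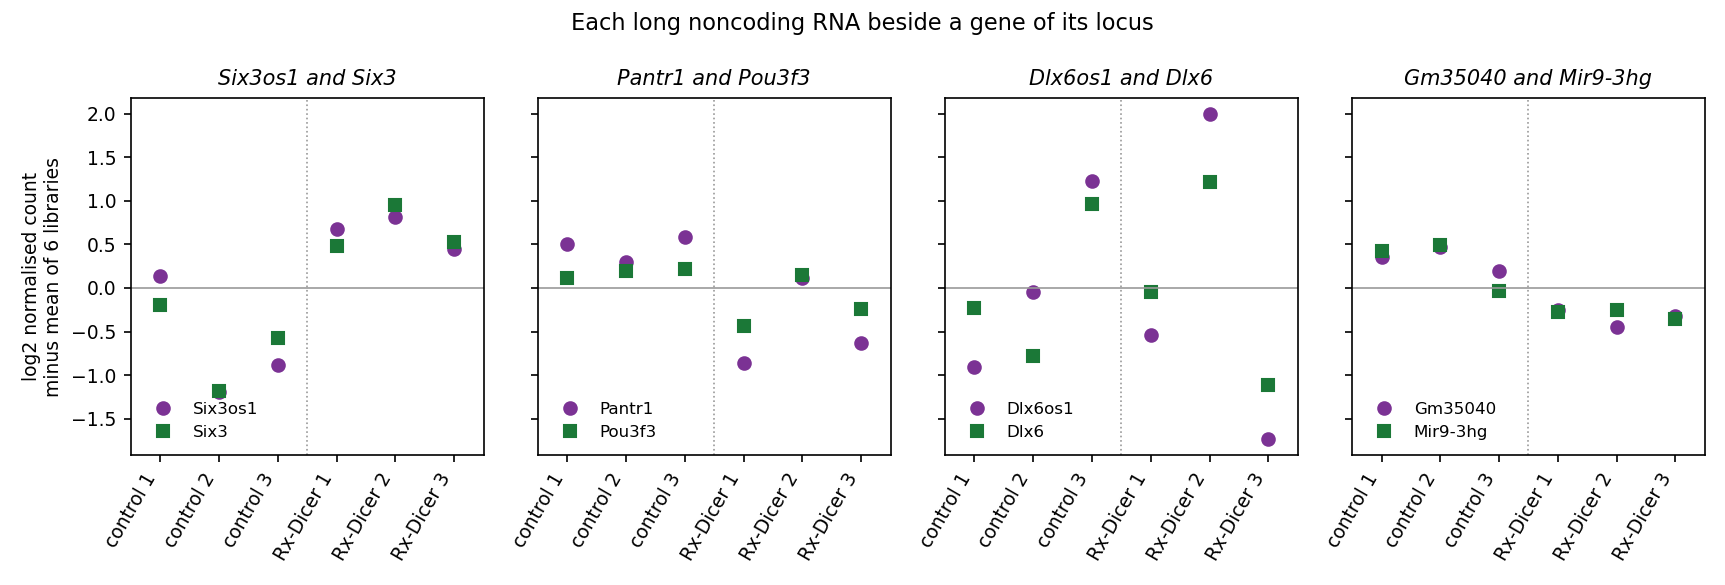
Log2 normalised counts, each gene centred on its mean over the 6 libraries (y axis), of 4 lncRNAs (purple circles) and a gene of their locus (green squares) in each control and Rx-Dicer library (x axis). Six3os1 and Six3 are above their mean in all 3 Rx-Dicer libraries, Dlx6os1 and Dlx6 both peak in Rx-Dicer 2, and Gm35040 and Mir9-3hg are below their mean in all 3 Rx-Dicer libraries.

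Dlx6os1, also known as Evf2 in its long form, is transcribed from the Dlx5 and Dlx6 locus and overlaps Dlx6 on the opposite strand. Both are homeobox genes of developing GABAergic neurons of the ventral telencephalon. The counted gene (ENSMUSG00000090063, chr6:6820189-6871592, minus strand, 5 exon blocks) had 318, 576 and 1398 normalised counts in the controls and 409, 2379 and 179 in Rx-Dicer. The highest and lowest libraries, 13.3-fold apart, were both Rx-Dicer, and this was the widest range of the 10 members. With such spread the log2 fold change was 0.37 ± 1.15 (SE; DESeq2 adjusted p = 0.964). It was -1.37 without the library labelled Rx-Dicer 2 (adjusted p = 0.572) and 1.15 without control 3.

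Its neighbours were high in the same libraries. Dlx6 had 98.9, 67.2 and 227 normalised counts in the controls and 112, 270.0 and 53.2 in Rx-Dicer. Dlx5 had 298, 266 and 718 in the controls and 314, 995 and 159 in Rx-Dicer. Control 3 and the library labelled Rx-Dicer 2 were the 2 highest for all 3 genes, as they were for the summed subpallial markers (12677 and 18429). The part of ventral tissue in these values was not tested. Per kb of exon, Dlx6os1 stood at 1.47 to 3.94 times Dlx6 in the controls and at 1.54 to 4.05 times in Rx-Dicer. The nearest profile was that of Sp9, a zinc finger gene of ventral progenitors, at a distance of 0.214.

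Sox2ot (ENSMUSG00000105265, chr3:34104270-34682619, plus strand, 19 exon blocks) spans Sox2, the transcription factor of neural progenitors, on the same strand. It had 569, 674 and 957 normalised counts in the controls and 513, 1795 and 437 in Rx-Dicer. Rx-Dicer 1 and 3 were below every control and the library labelled Rx-Dicer 2 was above them. This gave a log2 fold change of 0.32 ± 0.68 (SE; DESeq2 adjusted p = 0.941) and -0.62 without that library (adjusted p = 0.178).

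Sox2 had 16466, 13356 and 11816 normalised counts in the controls and 9984, 12674 and 14562 in Rx-Dicer (log2 fold change -0.16 ± 0.17 (SE), DESeq2 adjusted p = 0.819). Its libraries did not follow the order of Sox2ot, since the highest Sox2 library was control 1 and the highest Sox2ot library was Rx-Dicer 2. The ratio of Sox2ot to Sox2 per kb of exon ranged from 0.00613 to 0.0144 in the controls and from 0.00533 to 0.0251 in Rx-Dicer. A read that overlapped exons of both genes would have been left out by the counting mode. The nearest profiles to Sox2ot were Epha3, an ephrin receptor, and the gene Snhg11, both at a distance near 0.20.

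Rmst (ENSMUSG00000112117, chr10:92071037-92165170, minus strand, 14 exon blocks) is a lncRNA of neural differentiation and the midbrain, known to bind SOX2. It had 1108, 302 and 187 normalised counts in the controls and 980, 782 and 830 in Rx-Dicer. The Rx-Dicer libraries lay close together, while control 1 was above them and the other controls were well below. The log2 fold change of 0.70 ± 0.75 (SE) did not pass the test (DESeq2 adjusted p = 0.826), whereas without control 1 it was 1.82 (adjusted p = 3.56e-11). Fam163a (distance 0.168) and Mcidas (0.203) were likewise high in control 1 and had the nearest profiles. Introns of Rmst hold the hairpins of Mir1251, 28.0 kb from its start and, near its far end, Mir135a-2. The mature miR-135a-5p of this hairpin, from RefSeq (GRCm38.p6, chr10:92072141-92072163, minus strand), has its seed in capitals.
miR-135a-5p: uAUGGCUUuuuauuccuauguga

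Gm19554 and Gm35040 are predicted lncRNA genes with 2 exons each and no known role to report. Gm19554 (ENSMUSG00000113835, chr12:105899841-105902150, plus strand, 2076 bases of exon) lies between Papola and Vrk1, whose starts are 115 kb and 110 kb away. It had 882, 839 and 637 normalised counts in the controls and 352, 209 and 353 in Rx-Dicer, a log2 fold change of -1.37 ± 0.22 (SE). All Rx-Dicer values were lower, which is what the gene was chosen on, and no test is given. The log2 fold change was between -1.50 and -1.15 when a single library was left out. That range comes from the values the gene was chosen on and is no support for them. Papola and Vrk1 had log2 fold changes of 0.06 and -0.13, neither called. The nearest profiles were Tceal6 (distance 0.297) and Neurog2 (0.315), a proneural gene of the dorsal telencephalon with 6177, 6080 and 2903 normalised counts in the controls and 3323, 1485 and 2752 in Rx-Dicer.

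Gm35040 (ENSMUSG00000108616, chr7:79536043-79560033, plus strand, 5094 bases of exon) was the more abundant of this pair. It had 6022, 6515 and 5408 normalised counts in the controls and 3955, 3454 and 3784 in Rx-Dicer, a log2 fold change of -0.68 ± 0.12 (SE), again without a test. The lowest control was 5408 and the highest Rx-Dicer library 3955, a separation of the kind the gene was chosen on. The log2 fold change was between -0.75 and -0.61 when a single library was left out, which likewise describes the values behind the choice. Its first exon and that of Gm19554 are printed to show what was counted, from the GENCODE M21 transcripts (GRCm38, plus strand, 5′ to 3′), with Gm19554 at chr12:105899841-105899941 and Gm35040 at chr7:79536043-79536196.
Gm19554: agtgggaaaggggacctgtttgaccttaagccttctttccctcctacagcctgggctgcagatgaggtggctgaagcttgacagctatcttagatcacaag
Gm35040: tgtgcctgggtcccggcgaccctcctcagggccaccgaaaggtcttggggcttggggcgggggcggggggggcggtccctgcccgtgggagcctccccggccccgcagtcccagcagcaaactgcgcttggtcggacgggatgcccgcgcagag

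Gm35040 starts 1.639 kb after the end of Mir9-3hg, the host gene of a miR-9 hairpin, on the same strand. The hairpin Mir9-3 lies 30.7 kb upstream of the Gm35040 start. miR-9, an abundant microRNA of neural progenitors, is printed from RefSeq (GRCm38.p6, the Mir9-3 copy at chr7:79505279-79505301, plus strand) with its seed in capitals.
miR-9-5p: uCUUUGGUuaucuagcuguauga
Mir9-3hg had 4847, 5078 and 3507 normalised counts in the controls and 2975, 3026 and 2827 in Rx-Dicer, and fell (log2 fold change -0.61 ± 0.15 (SE), DESeq2 adjusted p = 0.00802, edgeR 0.172). All Rx-Dicer values were below all controls, with control 3 closest. The call was lost without control 1 (log2 fold change -0.55, adjusted p = 0.0637), control 2 (-0.50, 0.136) or Rx-Dicer 3 (-0.58, 0.0761). The ratio of Gm35040 to Mir9-3hg per kb of exon was 1.06, 1.10 and 1.32 in the controls and 1.14, 0.978 and 1.15 in Rx-Dicer, so the ratios of the groups overlapped. The gene nearest to Gm35040 in profile was Wscd1, at a distance of 0.047, the smallest among the 10 members. Gm35040 also had the narrowest range of the 10, 1.89-fold from the lowest to the highest library. The distance is not scaled to a gene's range, so it does not rank the closeness of match between members.

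**Figure D4:**
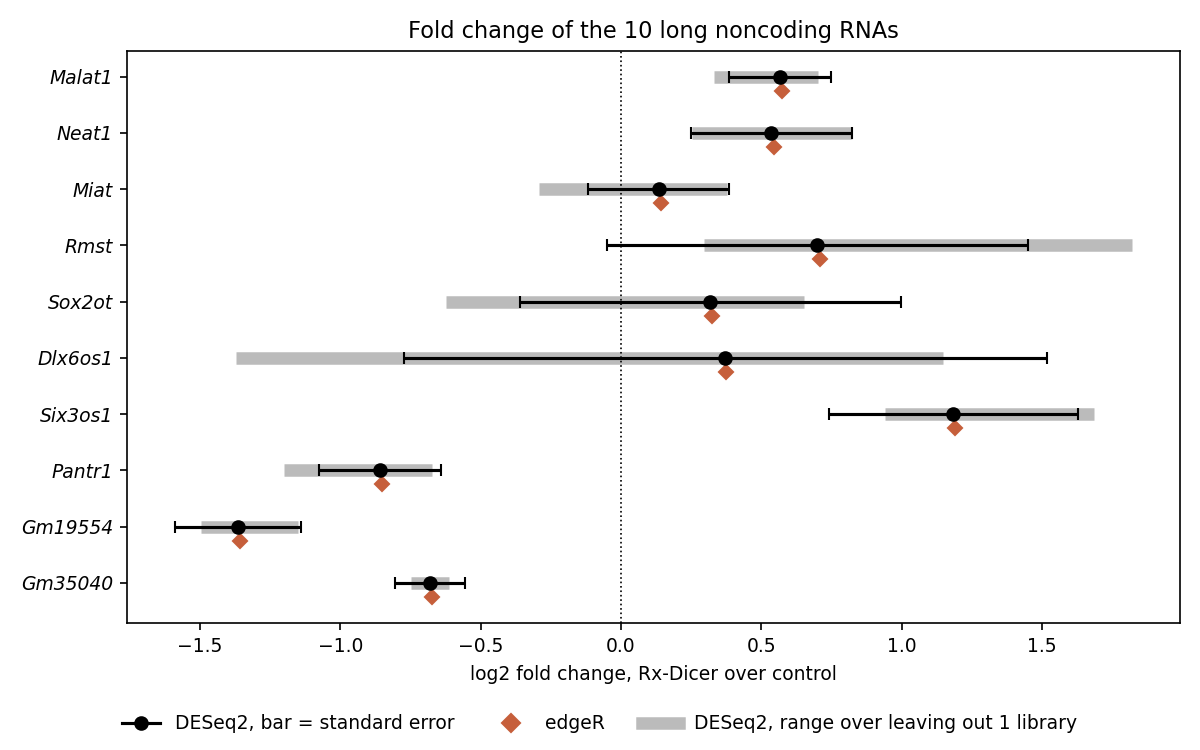
Log2 fold change of Rx-Dicer over control (x axis) for the 10 lncRNAs, with DESeq2 estimates as black circles with their standard error, edgeR estimates as orange diamonds and the range of the DESeq2 estimate over leaving out each library as grey bars. The grey bars cross 0 for Miat, Sox2ot and Dlx6os1, and stay on one side of 0 for the other members. Gm19554 and Gm35040 were chosen as lower in this comparison, so their bars are a description only.

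A list of 38 further lncRNAs known in neural cells or named for a neural transcription factor gene was set beside the members. Of these, 34 were found by name, 33 had a read and 30 were tested, of which 0 were higher and 1 (Mir9-3hg) was lower, with a median log2 fold change of 0.014. By edgeR 0 were called, with 6 of 30 at an unadjusted p under 0.05, beside 2313 of all 17954 genes tested by edgeR. Peg13 and Oip5os1 came near the threshold. Peg13, an imprinted brain transcript, had 4012, 3648 and 3885 normalised counts in the controls and 2996, 3187 and 2614 in Rx-Dicer (log2 fold change -0.39 ± 0.12 (SE), DESeq2 adjusted p = 0.0516). Oip5os1 (Cyrano) had 6728, 7684 and 6764 in the controls and 9183, 8393 and 9052 in Rx-Dicer (0.33 ± 0.11 (SE), adjusted p = 0.0901).

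The count for this list moved with single libraries. It was 4 without the library labelled Rx-Dicer 2 (Mir9-3hg, Oip5os1, Peg13 and Pantr2), 2 without control 3 (Mir9-3hg and Meg3) and 0 without control 1. Meg3, an imprinted growth-associated RNA, had 3510, 3948 and 6211 normalised counts in the controls and 7197, 11989 and 5996 in Rx-Dicer, a log2 fold change of 0.88 ± 0.41 (SE; DESeq2 adjusted p = 0.304), which was 1.17 without control 3 (adjusted p = 0.0021), 1.07 without Rx-Dicer 3 (0.0211) and 0.54 without the library labelled Rx-Dicer 2 (0.294). Dlx1as, the antisense RNA of Dlx1, followed the pattern of Dlx6os1, with 170, 268 and 678 in the controls and 91.8, 969.9 and 47.5 in Rx-Dicer. Its log2 fold change was -0.0090 ± 1.28 (SE; DESeq2 adjusted p = 0.9996), and -2.41 once Rx-Dicer 2 was left out (adjusted p = 0.0673). Tug1 ranged only from 6189 to 7170 over the 6 libraries (log2 fold change -0.01 ± 0.11 (SE)). Over all annotated lncRNA genes, 1190 were tested and 1.76% were called, 4 higher and 17 lower, with a median log2 fold change of -0.10.

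Levels between genes were compared per kb of exon. In order of the median over 6 libraries, normalised counts per kb were 3457 for Malat1, 1570 for Miat, 919 for Gm35040, 820 for Pantr1, 245 for Six3os1, 238 for Gm19554, 109 for Rmst, 95.3 for Dlx6os1, 53.6 for Sox2ot and 14.6 for Neat1. Neighbours in this order separated over all 6 libraries only between Malat1 and Miat, Pantr1 and Six3os1, and Sox2ot and Neat1. Gm35040, a gene with no known role, stood 23rd by this measure among the 5436 lncRNA genes with a read, beside Pantr1, which stood 24th. Neat1, the lowest of the 10, had 896 of these 5436 genes at or above it, itself included. Together the 10 members took 0.111 to 0.198% of all counts, with the highest share in the library labelled Rx-Dicer 2.

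**Figure D5:**
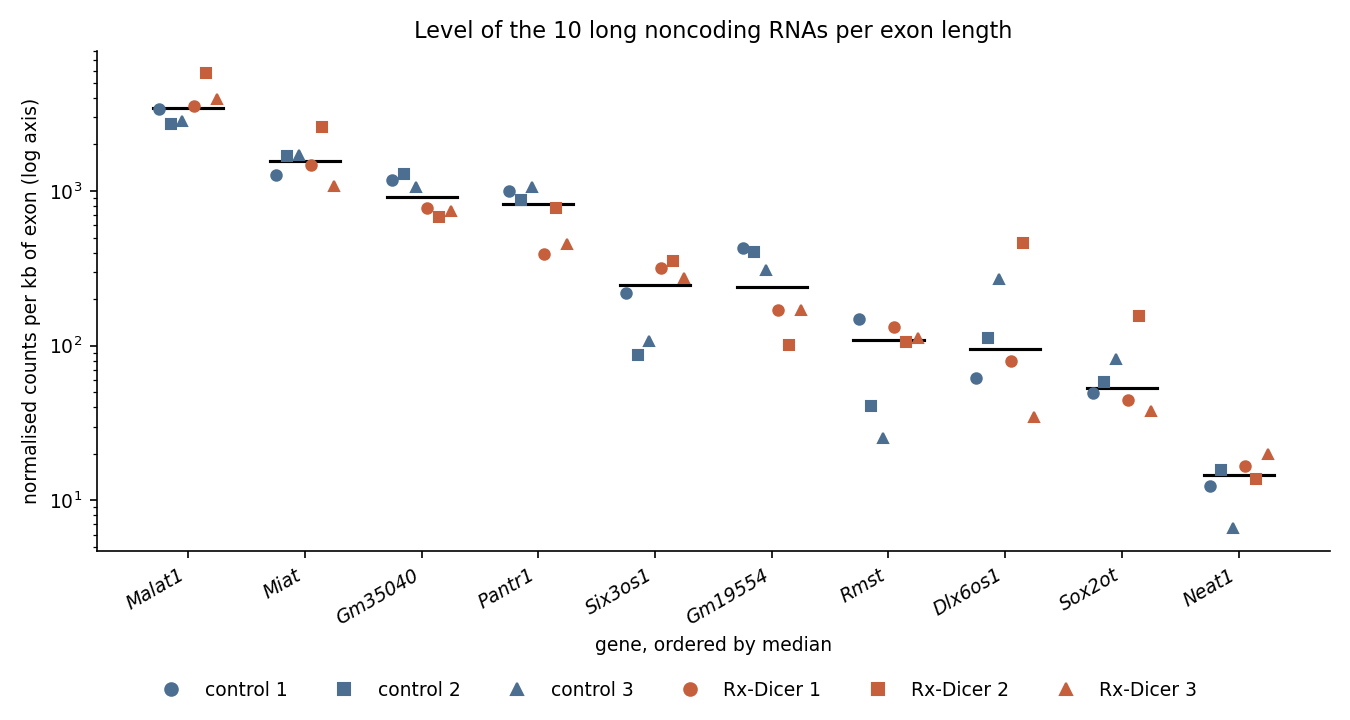
Normalised counts per kb of exon (y axis, log scale) of the 10 lncRNAs, ordered by their median (black line), with each control library in blue and each Rx-Dicer library in orange. Malat1 lies above every other member in all libraries, from 2706 to 5748, and Neat1 below them, from 6.60 to 19.9.

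Each library was sequenced in 2 runs, whose differences leave out library preparation and dissection. Whether they exceed counting error was not tested. The largest difference between the runs of a library was 2.46% for Malat1 and 23.3% for Dlx6os1, the other members lying between. Between libraries the highest over the lowest value was 1.89-fold for Gm35040 to 13.3-fold for Dlx6os1.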

How the data were processed

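Gene counts were used as deposited by the authors, 2 files per library for 2 sequencing runs, which were summed and not treated as replicates. Per the submitters' processing notes and methods, 100-base paired reads were checked with FastQC 2.6.14, trimmed with Trim Galore 0.6.5, aligned to GRCm38.p6 with HISAT2 and counted with HTSeq 0.12.4 (union mode, reverse strand, Ensembl genes). Rows that name no gene, 24.9 to 31.0% of reads, were kept out of totals and tests. Of 55471 identifiers, 55230 matched GENCODE M21 (GRCm38), which gave coordinates and exon lengths. The members and lists were chosen with earlier results of these data known.

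The main test was DESeq2 1.42.0 (Wald test, unshrunken fold changes, genotype alone, all 6 libraries, Benjamini-Hochberg adjustment over all genes), the authors' tool. The alternative was edgeR 4.0.16 (quasi-likelihood, at least 10 counts in at least 3 libraries). Others were TMM and total-count scaling, count and independent filters, thresholds, single runs, a replicate block and leaving out each library. Scripts were tested on simulated counts. The study describes the replicates as biological and the controls as littermates, and the litter and number of embryos behind each library are not given in the sources used here. Genes named were the members, listed genes that passed or that a comparison was about, and the 2 protein-coding genes (at least 100 normalised counts) nearest in profile to a member, by root mean square distance of centred log2(normalised count + 0.5). Lhx2, Peg13, Oip5os1, Meg3, Pantr2, Dlx1as, Tug1 and Cryba4, the ends of ranges and the markers named were picked after their values were seen. Promoter and microRNA sequences came from RefSeq, where 5 of the 10 members had a promoter. Values of some listed genes are not reported here.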

Additional observations from a re-analysis of the deposited data

Results flagged for a closer look

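Reads that overlapped no annotated gene were not part of any test. Their share is given of the reads on a gene, on no gene or ambiguous between genes. It had a median of 10.5% in the Rx-Dicer libraries, above the highest control (9.88%). Even so, Rx-Dicer 1 (9.04%) lay inside the control range of 8.15 to 9.88%. The highest share (13.2%) was that of the library labelled Rx-Dicer 2.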

How the results depend on the processing

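The 8 tested members gave 1 call. This count was 0 by edgeR and with a minimum of 2-fold. It was 2 with a filter on low counts, with an adjusted p under 0.1 and with either run alone, Malat1 being added. It was 0 to 2 over leaving out each library: 1 without the library labelled Rx-Dicer 2 (Pantr1), 1 without Rx-Dicer 1 (Malat1), and 2 without control 1 (Six3os1 and Rmst) or control 2 (Six3os1 and Pantr1). Of the neighbour and partner genes 1 each was called, and 0 each by edgeR, with 1 to 3 neighbours over leaving out each library. In the wider neural list, 1 gene was called, 0 by edgeR and at 2-fold, 2 with total-count scaling and with the second run, 3 with the filter and at an adjusted p under 0.1, and 0 to 4 over leaving out each library. Annotated lncRNA genes gave 21 calls, 0 by edgeR, 35 at 0.1, 6 at 2-fold, 13 and 12 with the first and second run, and 8 to 28 over leaving out each library. All genes gave 502 calls, 8 by edgeR, 322 without independent filtering, 122 at 2-fold, and 285 to 637 over leaving out each library. Directions turned over leaving out each library for Miat (-0.29 to 0.38), Sox2ot (-0.62 to 0.65), Dlx6os1 (-1.37 to 1.15), Dlx5 (-0.85 to 0.80), Dlx6 (-0.66 to 0.81) and Six2 (-0.62 to 1.08), and for Dlx6 with the first run alone (-0.045). With the longest transcript in place of all exons, the order of levels became 2 for Pantr1, 3 for Miat, 4 for Gm35040, 6 for Rmst, 7 for Gm19554, 8 for Sox2ot and 9 for Dlx6os1. For none of these was the cause tested. Of the other 31 partner and neighbour genes tested under the alternatives, 19 changed sign at least once, and 1 passed the test, Cryba4, with a log2 fold change of 1.90 without the library labelled Rx-Dicer 2.

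Libraries share replicate numbers, but the deviations of same-numbered libraries correlated at 0.27, -0.06 and -0.29, so the numbers were not taken as pairs. With a replicate block the members gave 2 calls (Pantr1 and Six3os1, the latter with a log2 fold change of 1.30), all genes gave 314, and the log2 fold change turned to -0.054 for Dlx6os1, -0.043 for Dlx5 and 0.35 for Six2. With 3 libraries a group, the log2 fold changes of Dlx6os1 (0.37), Sox2ot (0.32) and Rmst (0.70) were smaller than their standard errors (1.15, 0.68 and 0.75). What size of difference could have been detected was not tested.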
